A study of Mus musculus with 20 samples.

Results

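The enzymes described here couple a polar group to toxins, drugs, hormones and bile acids, and comprise the glutathione S-transferases (GST), the UDP-glucuronosyltransferases (UGT) and the sulfotransferases (SULT). Members were all genes whose probesets carried 1 symbol beginning with Gsta, Gstk, Gstm, Gsto, Gstp, Gstt, Gstz, Mgst, Ugt1, Ugt2, Ugt3 or Sult followed by a number or a letter and a number, without pseudogene names ending in -ps. This gave 52 of the 22180 genes measured, namely 21 GST, 10 UGT and 21 SULT genes, each with 1 probeset. RNA came from whole liver of adult male mice on a C57Bl6 background (C57BL/6J per the study's methods), and each mouse had its own array. Animals were either Nfil3-/- (NFIL3 KO) or their wild type (WT) littermates, and both genotypes received either tunicamycin at 1 µg/g or vehicle (150 mM dextrose) 8 h before the liver was taken. The 4 groups were WT vehicle, WT tunicamycin, NFIL3 KO vehicle and NFIL3 KO tunicamycin, with 5 mice in each. Tunicamycin blocks N-linked glycosylation in the endoplasmic reticulum (ER) and thereby sets off ER stress (ERS), and NFIL3 is a transcriptional repressor of the basic leucine zipper family. The question was how acute ERS alters gene expression in the liver and whether the loss of NFIL3 alters that response.

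Conjugation is the phase of xenobiotic metabolism in which a reactive or fat-soluble compound is made soluble for export into bile or urine. GST enzymes transfer glutathione to electrophiles, UGT enzymes sit in the ER membrane and transfer a sugar, mostly glucuronic acid, from a UDP-sugar, and SULT enzymes in the cytosol transfer a sulfo group from the donor PAPS. Hepatocytes carry most of this capacity, and its genes are known targets of nuclear receptors, of NRF2 and of C/EBP proteins. In mouse liver, Sult2a1 is known as a female-predominant gene.

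Array values were log2 signals, so that a difference of 1 is a 2-fold change. Differences of group means carry the standard error (SE) from a limma fit to all genes, and a gene was called when its adjusted p was under 0.05. Mean correlations of an array with the others of its group lay between 0.974 and 0.982, and replicate 3 of the NFIL3 KO tunicamycin group stood apart from the other arrays of its group. Nfil3 itself read 5.79 to 6.95 in WT livers under vehicle and 7.42 to 8.55 under tunicamycin, against 5.18 to 5.70 and 4.83 to 5.99 in NFIL3 KO livers, so that every NFIL3 KO array lay below every WT array of the same treatment. All 11 hepatocyte markers measured were above the array's median signal in every group, and their summed linear signal was 70546 to 74855 in WT vehicle, 64106 to 68532 in WT tunicamycin, 70630 to 73251 in NFIL3 KO vehicle and 66017 to 68086 in NFIL3 KO tunicamycin arrays. Tunicamycin lowered 5 of these 11 markers in each genotype, among them Serpina1a by 1.03 in WT, and raised Tat. Of 10 Kupffer cell and macrophage markers, Marco (1.59) and Adgre1 (0.62) were called higher in WT and none in NFIL3 KO livers, the summed signal being 1386 to 3151 in WT vehicle and 1890 to 2424 in WT tunicamycin arrays. Among markers of sinusoidal endothelium 3 of 10 were lower in WT and 4 of 10 in NFIL3 KO livers, and no marker of neutrophils or lymphocytes was called in either genotype. Of 6 cholangiocyte markers measured, Krt23 was called higher in WT (1.89) and NFIL3 KO livers (2.40) and Sox9 lower in WT (-0.62), and of 9 stellate cell markers Col3a1 was called lower in both (-0.42 and -0.70). The part of these shifts in the results below was not tested, and in whole liver fewer cells of a type and less RNA per cell cannot be told apart. Between the genotypes, no marker list held a called gene under either treatment.

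RefSeq promoter windows (mouse build GRCm38.p6) were at hand for 45 of the 52 members. Each window held the 250 bases before an annotated start and a shorter stretch after it. Whole windows, of members and of all genes, were searched on both strands for short motifs of factors known to act on these genes. The D-box motif TTATGTAA, which NFIL3 and the PAR bZIP activators bind, stood in the window of 1 member, Ugt2b1, which is 2.22% of the members with a window against 1.11% of all genes with one. The other D-box form, TTACGTAA, stood in none (0.126% of all genes). The core of the antioxidant response element, TGACNNNGC, bound by NRF2, was found in Gsta3, Gstm7 and Mgst1, or 6.67% of members against 14% of all genes. The xenobiotic response element core GCGTG was found in 7 members (15.6% against 35.2%). Neither the E-box CACGTG (8.09% of all genes) nor the C/EBP-ATF element ATTGCATCA (0.222%) occurred in a member's window. A match describes letters and not a bound site. The 3 windows below belong to genes on which the results turn, namely the gene that differed most between genotypes under tunicamycin (Gsta3), the gene with the D-box motif (Ugt2b1) and a microsomal GST with an antioxidant element (Mgst1). Of each, the 250 bases before the start are printed 5′ to 3′ on the gene's strand, with motif letters in capitals. Those of Gsta3 (chr1:21240335-21240584, plus strand) mark the antioxidant core 121 bases before the start. In Mgst1 (chr6:138140277-138140526, plus strand) they mark the reverse complement of that core 56 bases before the start, and in Ugt2b1 (chr5:86926504-86926753, minus strand) the reverse complement of the D-box 59 bases before it.
Gsta3: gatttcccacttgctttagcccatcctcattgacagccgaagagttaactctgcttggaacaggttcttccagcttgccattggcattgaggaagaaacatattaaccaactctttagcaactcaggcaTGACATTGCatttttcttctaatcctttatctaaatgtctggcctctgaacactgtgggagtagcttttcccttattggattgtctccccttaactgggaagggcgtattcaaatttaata
Mgst1: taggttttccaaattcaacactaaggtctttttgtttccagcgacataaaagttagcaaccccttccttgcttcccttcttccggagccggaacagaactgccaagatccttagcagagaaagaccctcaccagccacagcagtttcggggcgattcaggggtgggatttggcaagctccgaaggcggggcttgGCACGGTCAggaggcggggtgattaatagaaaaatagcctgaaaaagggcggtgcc
Ugt2b1: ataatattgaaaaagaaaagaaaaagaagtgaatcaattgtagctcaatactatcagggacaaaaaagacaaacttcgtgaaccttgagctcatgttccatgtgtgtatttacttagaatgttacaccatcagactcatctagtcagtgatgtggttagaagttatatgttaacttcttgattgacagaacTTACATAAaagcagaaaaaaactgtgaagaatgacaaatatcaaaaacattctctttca

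Upon tunicamycin, 27 of the 52 genes were called in WT livers, of which 24 fell and 3 rose. Across all 22180 genes 27.4% were called and 13.7% were called lower, whereas 51.9% of the members were called and 46.2% fell. The 5 tunicamycin arrays did not overlap the 5 vehicle arrays for 20 members (38.5%, against 22.2% of all genes). The median difference was -0.32 over the members and -0.03 over all genes. The families differed in these counts, which are descriptions with no test because related genes are not replicates. Among UGT genes 9 of 10 fell, none rose and the median was -1.05. Among GST genes 10 of 21 fell and 3 rose, with a median of -0.31. Among SULT genes 5 of 21 fell, none rose and the median was -0.12. Signal bears on this split, since 15 SULT and 3 GST genes had no group mean above 4.70, the median of all values on the arrays, and no UGT gene was that dim. Of the 34 brighter members, the 6 SULT genes had a median of -1.13 and the 18 GST genes of -0.54. A fall of more than 2-fold was called for 13 members in WT (25%, against 2.55% of all genes) and for 6 in NFIL3 KO livers (11.5%, against 2.36%).

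**Figure D1:**
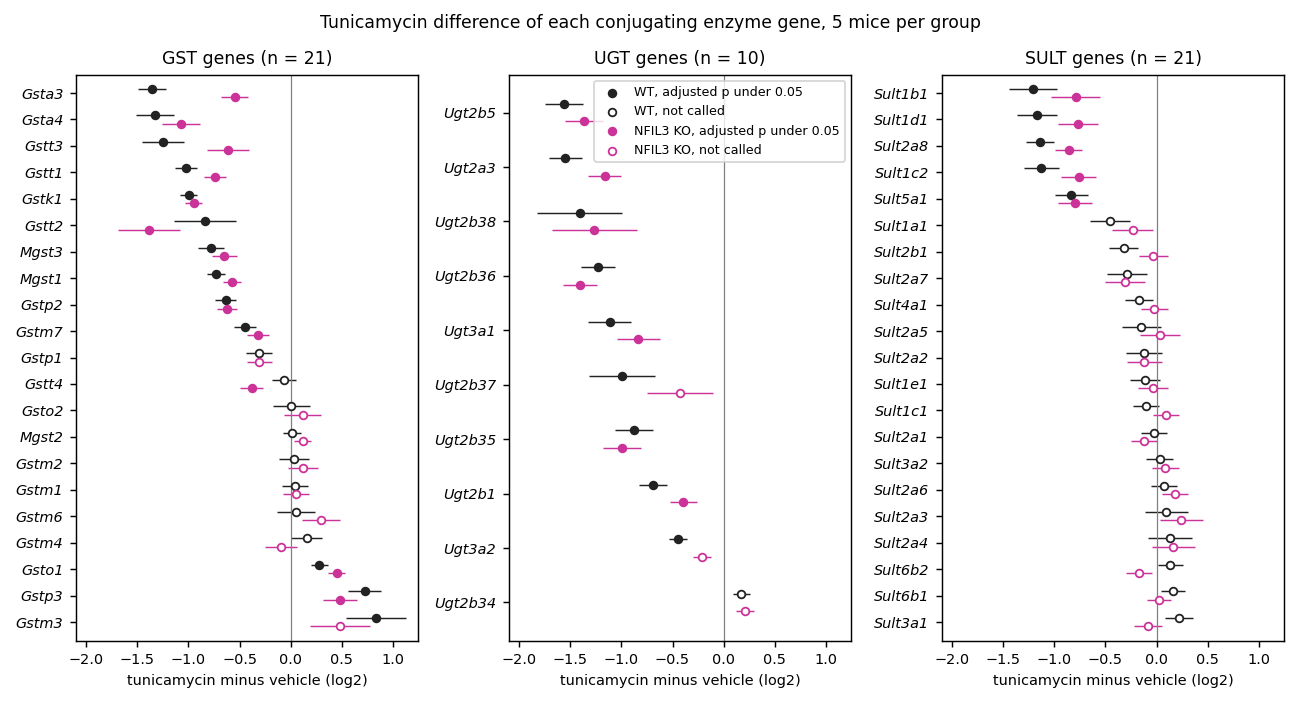
Difference between tunicamycin and vehicle (log2, point, with the SE as a bar) for each of the 52 genes, in WT (black) and NFIL3 KO livers (magenta), 5 mice per group. Filled points have an adjusted p under 0.05. The UGT genes other than Ugt2b34 lie left of 0, the GST genes run from -1.36 to 0.84 in WT, and most SULT genes cluster near 0.

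In NFIL3 KO livers, tunicamycin changed 25 of the 52 genes (48.1%, against 27.2% of all genes), of which 23 fell (44.2%, against 13.7%) and 2 rose. Groups did not overlap for 19 members (36.5%, against 20.9% of all genes). The falls numbered 7 of 10 UGT, 11 of 21 GST and 5 of 21 SULT genes, with medians of -0.92, -0.32 and -0.08. In all, 22 genes fell in both genotypes, which is 91.7% of those that fell in WT and 95.7% of those that fell in NFIL3 KO livers. The same shares over all genes were not counted, so these do not set the members apart from other genes. Ugt2b37 and Ugt3a2 were called lower in WT livers, with differences of -0.99 and -0.45, and stood at -0.43 and -0.21 without a call in NFIL3 KO livers, where Ugt3a2 was called under 3 of the other settings (adjusted p of 0.0414 to 0.0471). Gstt4, a dim gene (highest group mean 4.34), was called lower in NFIL3 KO livers (-0.38) and stood at -0.07 in WT livers. For none of these 3 genes was the difference between the 2 responses called (interaction of genotype and treatment). Among the brighter genes, Gstm1, Gstm2, Gstm4, Gstm6, Gstp1, Sult1a1 and Ugt2b34 were called in neither genotype.

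Among the GST genes, every brighter member of the alpha, kappa, theta and microsomal classes fell in both genotypes, whereas the mu and pi classes held values of both signs and Gsto1 of the omega class was called higher in both. The alpha members were Gsta3 and Gsta4 only. Gsta1 and Gsta2 share probesets, which were not called in either genotype. The alpha class member Gsta3 is a mouse enzyme known for conjugating the epoxide of aflatoxin B1. Gsta3 read 11.12, 11.03, 10.45, 10.96 and 10.65 in WT livers given vehicle and 9.52, 9.73, 9.63, 9.08 and 9.46 in those given tunicamycin. NFIL3 KO livers had Gsta3 at 10.97, 10.91, 10.98, 10.93 and 10.90 under vehicle and at 10.23, 10.58, 10.32, 10.65 and 10.18 under tunicamycin. No tunicamycin array reached a vehicle array of its genotype, and the fall was 1.36 ± 0.13 in WT livers (adjusted p = 2.86e-08) and 0.55 ± 0.13 in NFIL3 KO livers (adjusted p = 0.0025). Gsta4 conjugates the lipid peroxidation product 4-hydroxynonenal. Under vehicle the 5 WT livers had log2 signals of 9.97, 10.08, 9.24, 10.18 and 9.70 for Gsta4, and under tunicamycin 8.55, 9.04, 8.24, 7.88 and 8.84. With NFIL3 lost, Gsta4 read 10.22, 10.20, 10.46, 10.43 and 10.23 under vehicle and 9.37, 9.40, 9.36, 8.91 and 9.13 under tunicamycin. The groups were again apart, with WT vehicle replicate 3 the lowest of its group for both genes. Gsta4 fell by 1.33 ± 0.19 in WT (adjusted p = 5.16e-06) and by 1.08 ± 0.19 in NFIL3 KO livers (adjusted p = 7.73e-05). That array was the lowest of the 5 WT vehicle arrays for 16 of the 34 brighter members and the highest for none.

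Gstk1, the kappa class enzyme of mitochondria and peroxisomes, had the smallest p of all members in both genotypes. The log2 signals of Gstk1 in WT livers were 10.62, 10.72, 10.52, 10.74 and 10.51 under vehicle and 9.51, 9.72, 9.62, 9.56 and 9.70 under tunicamycin. The NFIL3 KO values of Gstk1 were 10.25, 10.37, 10.38, 10.36 and 10.17 under vehicle and 9.52, 9.38, 9.38, 9.37 and 9.15 under tunicamycin. Vehicle and tunicamycin arrays were far apart in each genotype, the differences being -0.996 ± 0.08 in WT (adjusted p = 3.14e-09) and -0.95 ± 0.08 in NFIL3 KO livers (adjusted p = 7.32e-09). Of the theta class, Gstt1, which acts on small halogenated compounds, fell by 1.03 ± 0.11 in WT and by 0.74 ± 0.11 in NFIL3 KO livers. Vehicle-treated WT livers had Gstt3 at 6.91, 6.71, 6.22, 7.07 and 6.80, and tunicamycin-treated WT livers at 5.46, 6.002, 5.27, 5.26 and 5.46. NFIL3 KO livers had Gstt3 at 5.84, 5.25, 6.37, 5.86 and 6.36 under vehicle and at 5.31, 5.69, 5.36, 5.47 and 4.79 under tunicamycin. In WT livers the groups were apart, and in NFIL3 KO livers they overlapped because vehicle replicate 2 was low. Gstt3 fell by 1.25 ± 0.20 in WT and by 0.61 ± 0.20 in NFIL3 KO livers. Gstt2 read 7.76, 7.84, 7.60, 7.67 and 7.02 in WT livers given vehicle and 6.93, 6.84, 6.40, 6.97 and 6.57 in those given tunicamycin. With NFIL3 lost, Gstt2 read 7.76, 7.09, 7.14, 7.54 and 7.76 under vehicle and 6.29, 5.91, 7.59, 5.03 and 5.57 under tunicamycin. Among the NFIL3 KO tunicamycin arrays of Gstt2, replicate 3 sat with the vehicle arrays and the other 4 well below them. Gstt2 fell by 1.38 ± 0.30 in NFIL3 KO livers (adjusted p = 0.00104) and by 0.83 ± 0.30 in WT livers (adjusted p = 0.0437). The WT call was lost, with adjusted p-values of 0.0503 to 0.101, when WT vehicle replicate 1, 2, 3 or 4, WT tunicamycin replicate 1, 2, 3 or 5 or NFIL3 KO vehicle replicate 4 was left out. The microsomal enzyme Mgst1, which sits in the ER and outer mitochondrial membranes, fell by 0.73 ± 0.09 in WT livers (adjusted p = 1.1e-06) and by 0.57 ± 0.09 in NFIL3 KO livers. Mgst3 fell by 0.78 ± 0.13 and by 0.65 ± 0.13, and Mgst2 was dim throughout, at 3.67 to 4.19.

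In the mu class, Gstm7 fell by 0.44 ± 0.11 in WT livers and by 0.32 ± 0.11 in NFIL3 KO livers, while Gstm1, Gstm2, Gstm4 and Gstm6 differed by -0.10 to 0.30 in either genotype and were not called. Under vehicle the 5 WT livers had log2 signals of 8.37, 8.16, 7.39, 8.48 and 7.84 for Gstm3, and under tunicamycin 8.48, 10.00, 8.16, 8.28 and 9.50. Replicates 2 and 5 were high under tunicamycin, and the other 3 tunicamycin arrays lay within or just above the vehicle range. Gstm3 was called higher in WT livers (0.84 ± 0.29, adjusted p = 0.0363). Without tunicamycin replicate 2 the difference was 0.56 (adjusted p = 0.137), and the omission of tunicamycin replicate 5 or of vehicle replicate 2, 3 or 5 also ended the call. In NFIL3 KO livers Gstm3 stood at 0.48 ± 0.29 (adjusted p = 0.275). Of the pi class, Gstp2 fell by 0.64 ± 0.10 and by 0.63 ± 0.10, Gstp3 was called higher, and Gstp1, a broad-acting enzyme, stood at -0.31 ± 0.13 in each genotype without a call. The log2 signals of Gstp3 in WT livers were 9.01, 9.25, 9.14, 9.11 and 9.05 under vehicle and 9.69, 10.14, 9.18, 9.88 and 10.28 under tunicamycin. The NFIL3 KO values of Gstp3 were 8.26, 8.93, 9.10, 8.69 and 8.80 under vehicle and 9.25, 9.26, 9.42, 9.08 and 9.18 under tunicamycin. In WT livers 4 of 5 tunicamycin arrays lay above all vehicle arrays and replicate 3 lay among them. The rise of Gstp3 was 0.72 ± 0.16 in WT livers (adjusted p = 0.00128) and 0.48 ± 0.16 in NFIL3 KO livers (adjusted p = 0.0294), where the omission of vehicle replicate 1 or 4 or of tunicamycin replicate 1, 2 or 3 ended the call (0.36 to 0.48, adjusted p = 0.0516 to 0.11). Gsto1 reduces dehydroascorbate with glutathione. Vehicle-treated WT livers had Gsto1 at 9.22, 9.31, 9.20, 9.18 and 9.12, and tunicamycin-treated WT livers at 9.50, 9.53, 9.27, 9.56 and 9.58. Its tunicamycin arrays lay above every vehicle array with the exception of replicate 3, and it rose by 0.28 ± 0.09 in WT and by 0.45 ± 0.09 in NFIL3 KO livers. Probes of the Gstm and Gstp genes can be shared between close relatives, so that values of single members of these classes are uncertain.

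**Figure D2:**
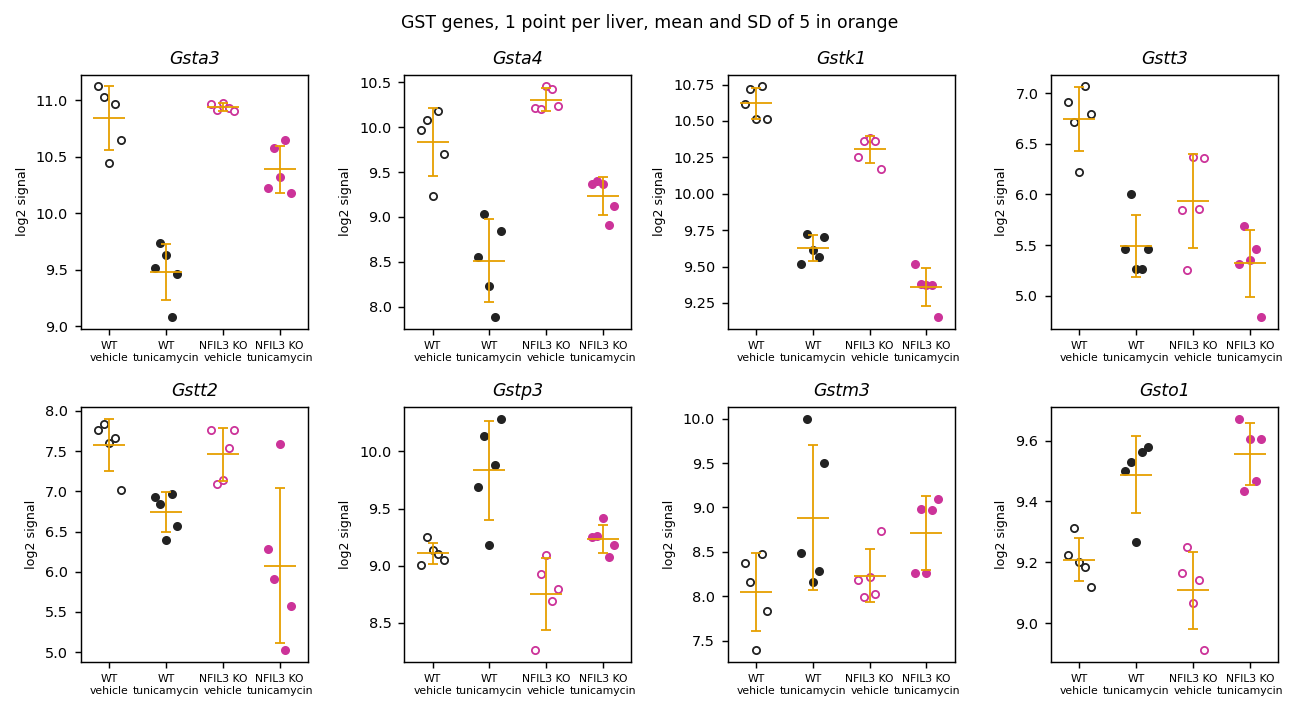
Log2 signal of 8 GST genes in each of the 20 livers (points), with the mean and SD of 5 mice in orange, for WT (black) and NFIL3 KO (magenta) livers given vehicle (open) or tunicamycin (filled). Gsta3 under tunicamycin lies at 9.08 to 9.73 in WT and at 10.18 to 10.65 in NFIL3 KO livers, and Gstt2 has NFIL3 KO tunicamycin replicate 3 at 7.59.

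Of the 10 UGT genes, 9 fell in WT and 7 in NFIL3 KO livers, and Ugt2b34 was called in neither. Ugt2b5 read 11.05, 11.16, 10.57, 10.88 and 10.33 in WT livers given vehicle and 9.39, 9.58, 9.26, 8.87 and 9.11 in those given tunicamycin. Under vehicle the 5 WT livers had log2 signals of 10.91, 10.94, 10.37, 10.74 and 10.49 for Ugt2a3, and under tunicamycin 9.52, 9.61, 9.23, 8.60 and 8.75. For both genes the highest tunicamycin array was below the lowest vehicle array. Their differences in WT livers, -1.56 ± 0.19 and -1.55 ± 0.16, were the greatest of the family, and in NFIL3 KO livers they fell by 1.37 ± 0.19 and by 1.16 ± 0.16. Ugt2b36 fell by 1.23 ± 0.17 in WT and by 1.40 ± 0.17 in NFIL3 KO livers (adjusted p = 3.15e-06 and 5.27e-07), and Ugt2b35 by 0.88 ± 0.19 and 1.00 ± 0.19. Ugt2b38 had the widest spread of the family in both NFIL3 KO groups, and its fall of 1.27 ± 0.41 there (adjusted p = 0.0248) was no longer called without NFIL3 KO vehicle replicate 2, 4 or 5 or tunicamycin replicate 3 or 4 (adjusted p = 0.0614 to 0.0975). Its fall in WT livers was 1.41 ± 0.41 (adjusted p = 0.0121). Probes can be shared between the Ugt2b genes, so that the values of single relatives are uncertain.

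Ugt2b1, an enzyme known to glucuronidate steroids and phenols, had smaller differences. The log2 signals of Ugt2b1 in WT livers were 12.34, 12.49, 12.01, 12.38 and 12.33 under vehicle and 11.62, 12.01, 11.89, 11.30 and 11.28 under tunicamycin. NFIL3 KO livers had Ugt2b1 at 12.14, 12.30, 12.28, 12.30 and 12.23 under vehicle and at 11.74, 12.18, 11.65, 11.94 and 11.76 under tunicamycin. In WT livers tunicamycin replicate 2 came close to the lowest vehicle array without overlap, and in NFIL3 KO livers the groups overlapped through replicate 2. The differences were -0.69 ± 0.13 (adjusted p = 0.000269) and -0.39 ± 0.13 (adjusted p = 0.0294), and the latter was no longer called without NFIL3 KO vehicle replicate 2, 3 or 4 or tunicamycin replicate 1, 3 or 5 (adjusted p = 0.0539 to 0.0731). Ugt2b34 lay higher under tunicamycin in both genotypes, at 0.17 ± 0.09 in WT and 0.21 ± 0.09 in NFIL3 KO livers, without a call. With NFIL3 lost, Ugt2b34 read 11.37, 11.43, 11.45, 11.37 and 11.21 under vehicle and 11.49, 11.48, 11.66, 11.72 and 11.53 under tunicamycin. These groups did not overlap, and the adjusted p was 0.0767, with a call under 3 other settings (0.0286 to 0.0363). The UGT3 genes, whose human relatives use other sugars than glucuronic acid, fell by 1.11 ± 0.21 (Ugt3a1) and 0.45 ± 0.09 (Ugt3a2) in WT livers, and Ugt3a1 fell by 0.84 ± 0.21 in NFIL3 KO livers.

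Of the 21 SULT genes, 6 were above the median signal of the arrays, and 5 of these fell in both genotypes. Sult2a8, a mouse enzyme known to sulfate bile acids, was among them. Vehicle-treated WT livers had Sult2a8 at 11.94, 12.02, 11.55, 11.72 and 11.51, and tunicamycin-treated WT livers at 10.68, 10.91, 10.76, 10.19 and 10.50. The NFIL3 KO values of Sult2a8 were 11.77, 11.76, 11.68, 11.70 and 11.63 under vehicle and 10.96, 11.14, 10.95, 10.71 and 10.48 under tunicamycin. All tunicamycin arrays lay below all vehicle arrays in both genotypes, with differences of -1.14 ± 0.13 (adjusted p = 4.93e-07) and -0.86 ± 0.13 (adjusted p = 2.31e-05). Sult1d1 sulfates catecholamines in the mouse. Sult1d1 read 10.13, 10.05, 9.63, 9.74 and 10.07 in WT livers given vehicle and 9.52, 8.93, 8.43, 8.27 and 8.61 in those given tunicamycin. The groups were apart in WT livers and overlapped in NFIL3 KO livers, where vehicle replicate 5 was low at 9.31. Sult1d1 fell by 1.17 ± 0.20 in WT and by 0.77 ± 0.20 in NFIL3 KO livers. Sult1b1, known to act on thyroid hormones, fell by 1.21 ± 0.24 and by 0.79 ± 0.24. Sult1c2 fell by 1.13 ± 0.17 and by 0.76 ± 0.17, and Sult5a1 by 0.83 ± 0.17 and by 0.79 ± 0.17. Sult1a1, the main phenol sulfotransferase, stood at -0.45 ± 0.20 in WT livers (adjusted p = 0.1) and at -0.24 in NFIL3 KO livers. The remaining 15 genes, among them 8 of the 9 Sult2 genes, the oestrogen sulfotransferase Sult1e1 and Sult4a1, were dim and none was called in either genotype, which at this signal does not show that they did not change.

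**Figure D3:**
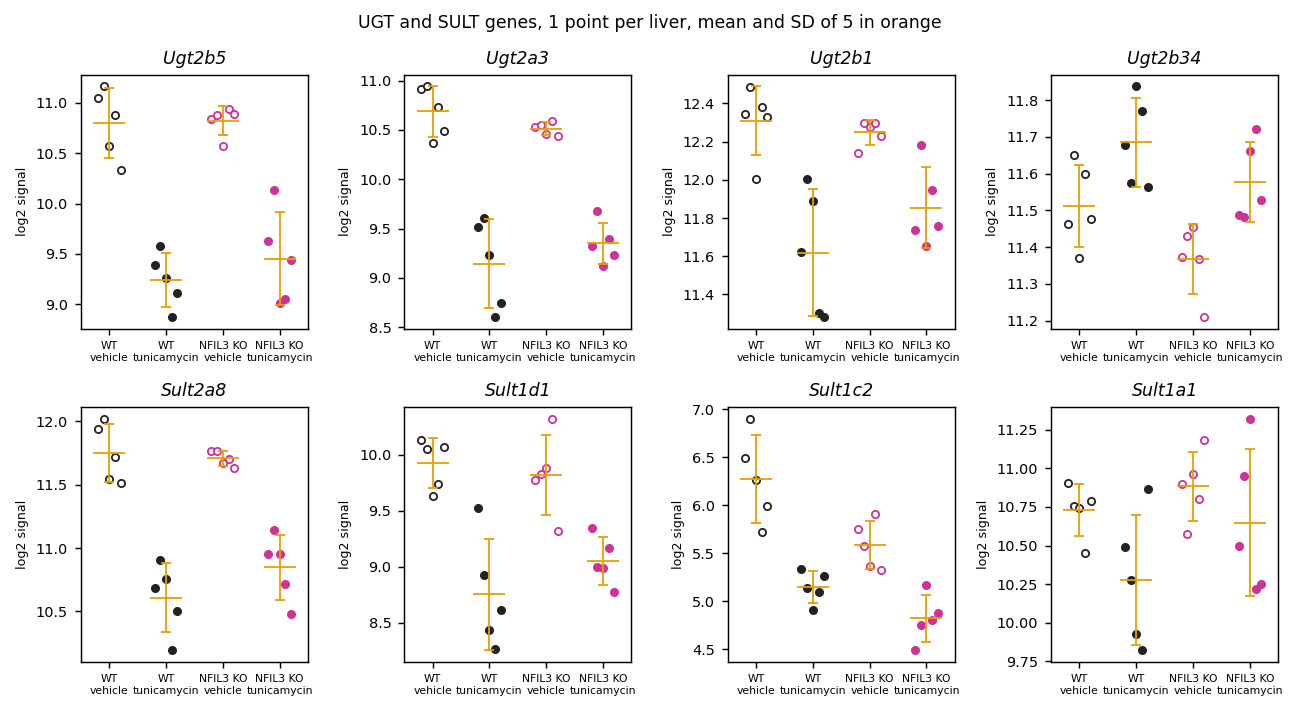
Log2 signal of 4 UGT and 4 SULT genes in each of the 20 livers (points), with the mean and SD of 5 mice in orange, for WT (black) and NFIL3 KO (magenta) livers given vehicle (open) or tunicamycin (filled). Ugt2b5 in WT livers lies at 10.33 to 11.16 under vehicle and at 8.87 to 9.58 under tunicamycin, whereas Ugt2b34 does not fall.

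Many of the genes lie side by side in the genome. In the RefSeq order, 8 Ugt2 and 3 Sult1 genes form a run of 11 on chromosome 5, with 2 other genes of the Ugt2 family in the span that are not members because they share a probeset. In this run 9 genes fell in WT and 8 in NFIL3 KO livers. Ugt2b34 at one end of it and Sult1e1, which was dim, at the other were called in neither genotype. By contrast, of the 6 Gstm genes that adjoin each other on chromosome 3, Gstm7 at the end of the row fell, Gstm3 was called higher in WT and the remaining 4 were not called. The 4 Gstt genes adjoin on chromosome 10 and 3 of them fell in WT and all 4, including the dim Gstt4, in NFIL3 KO livers. On chromosome 7, Sult2a8 was the only gene of 8 adjoining Sult2a genes above the median signal and the only one called. On chromosome 19, the 3 Gstp genes adjoin, and Gstp2 fell while Gstp3 rose.

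**Figure D4:**
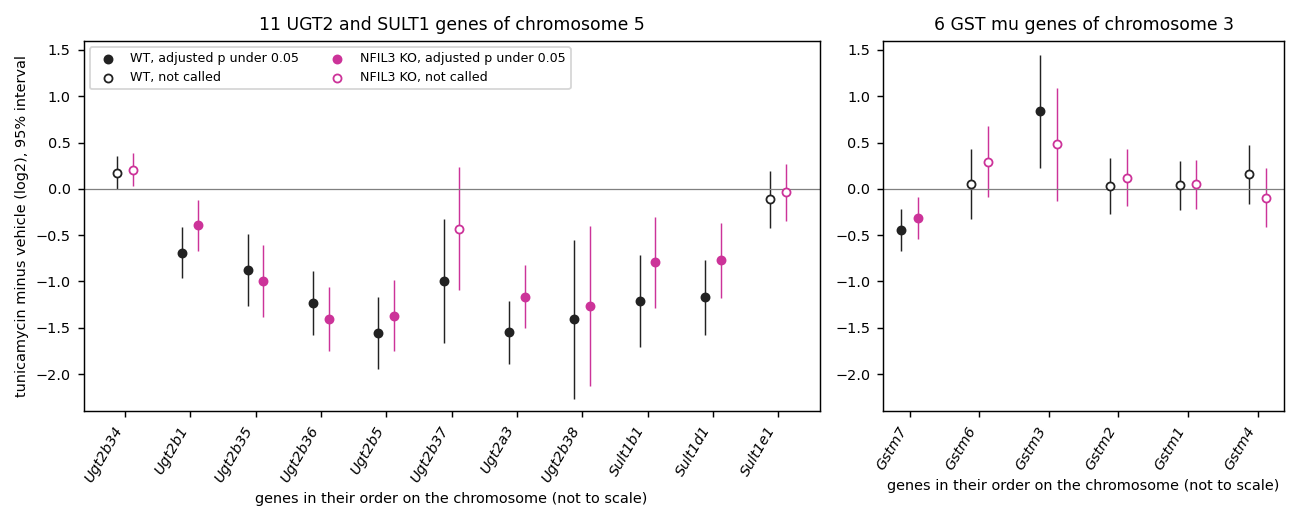
Difference between tunicamycin and vehicle (log2, point, with its 95% interval) along 2 runs of adjoining genes, in WT (black) and NFIL3 KO livers (magenta). Filled points have an adjusted p under 0.05. In the chromosome 5 run the values lie below 0 from Ugt2b1 to Sult1d1, and in the chromosome 3 run they lie on either side of 0.

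Under vehicle, loss of NFIL3 gave no call among the 52 genes, against 0.0225% of all genes called. Nfil3 itself was not called under vehicle, although its arrays did not overlap between genotypes. The lack of a call therefore does not show equal levels. An unadjusted p under 0.05 was found for 7 of the 52 and for 1184 of all 22180 genes. Groups did not overlap for 2 members, Gsta4 and Gstk1 (3.85%, against 1.23% of all genes). Gsta4 was higher in NFIL3 KO livers by 0.47 ± 0.19 (adjusted p = 0.814) and Gstk1 lower by 0.32 ± 0.08 (adjusted p = 0.423), the values of each liver being those given above. Ugt2b37 had the smallest p of the UGT genes (-0.85 ± 0.32, adjusted p = 0.773). The smallest p-values of all members belonged to Sult1c2, with a difference of -0.69 ± 0.17 (adjusted p = 0.366), and Gstt3, with -0.81 ± 0.20 (adjusted p = 0.366). Under vehicle the 5 WT livers had log2 signals of 6.50, 6.90, 6.27, 5.72 and 5.99 for Sult1c2, and under tunicamycin 5.34, 5.14, 4.90, 5.09 and 5.26. NFIL3 KO livers had Sult1c2 at 5.75, 5.57, 5.37, 5.91 and 5.33 under vehicle and at 4.49, 4.76, 5.17, 4.81 and 4.88 under tunicamycin. Under vehicle the NFIL3 KO arrays were lower on average, and the ranges overlapped through the low WT replicate 4.

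Under tunicamycin, Gsta3 was the only member called between the genotypes (1.92% of the members, against 0.243% of all genes called, 0.176% higher and 0.0676% lower), and it was the only member whose groups did not overlap (1.49% of all genes did not). Its log2 signal was 9.08 to 9.73 in WT and 10.18 to 10.65 in NFIL3 KO livers, a difference of 0.91 ± 0.13, or 1.87-fold (95% interval of the log2 difference 0.63 to 1.18, adjusted p = 0.00144). Under vehicle the genotypes differed by 0.10 ± 0.13, with an interval of -0.18 to 0.37. The call held in each of 31 other settings, with differences of 0.80 to 0.97. Gsta3 had been picked out by the study on these same arrays, so this difference is not independent evidence. The study, with other tests, also named Ugt2b1 there as less repressed without NFIL3, and Ugt2b1 was not called between genotypes here. The next smallest p-values were those of Gsta4, higher in NFIL3 KO livers by 0.72 ± 0.19 (adjusted p = 0.169), Gstp3, lower by 0.60 ± 0.16 (adjusted p = 0.22), and Gstk1, lower by 0.27 ± 0.08 (adjusted p = 0.307). Of the other families, Sult2a1 (-0.28 ± 0.13, adjusted p = 0.521) and Ugt2b1 (0.23 ± 0.13, adjusted p = 0.628) came first among the SULT and UGT genes. Gstp3 was called when WT tunicamycin replicate 3 was left out (-0.76, adjusted p = 0.0184), and Gstt2 when NFIL3 KO tunicamycin replicate 3 was left out (-1.04, adjusted p = 0.0392).

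The test of whether the response to tunicamycin itself differed between genotypes, the interaction, called no member, against 0.00902% of all genes. Nfil3 was not called in this test either, so the lack of a call does not show equal responses. An unadjusted p under 0.05 was found for 1019 of all 22180 genes and for 2 members. These were Gsta3, with an interaction of 0.81 ± 0.19 (interval 0.42 to 1.20, unadjusted p = 0.000288, adjusted p = 0.494), and Gstt3, with 0.64 ± 0.29 (interval 0.04 to 1.24). Both values are positive because the fall was smaller in NFIL3 KO livers. For Gsta3 the genotypes differed under tunicamycin (0.91). For Gstt3 the larger difference was under vehicle (-0.81, not called). Under tunicamycin Gstt3 overlapped between the genotypes, at 5.26 to 6.002 in WT and 4.79 to 5.69 in NFIL3 KO livers. The interaction was above 0 for 40 of the 52 members, with medians of 0.22 in UGT, 0.10 in GST and 0.11 in SULT genes beside -0.0019 over all genes. The share above 0 over all genes was not counted, and 18 of the 52 members were dim. Under vehicle, 36 of the 52 members were lower in NFIL3 KO livers (median -0.09). Under tunicamycin, 28 were lower and 24 higher there (median -0.02). The count of 40 is a description, and it uses the same arrays as the differences above. For Ugt2b1 the interval was -0.09 to 0.69 and for Mgst1 -0.11 to 0.43.

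**Figure D5:**
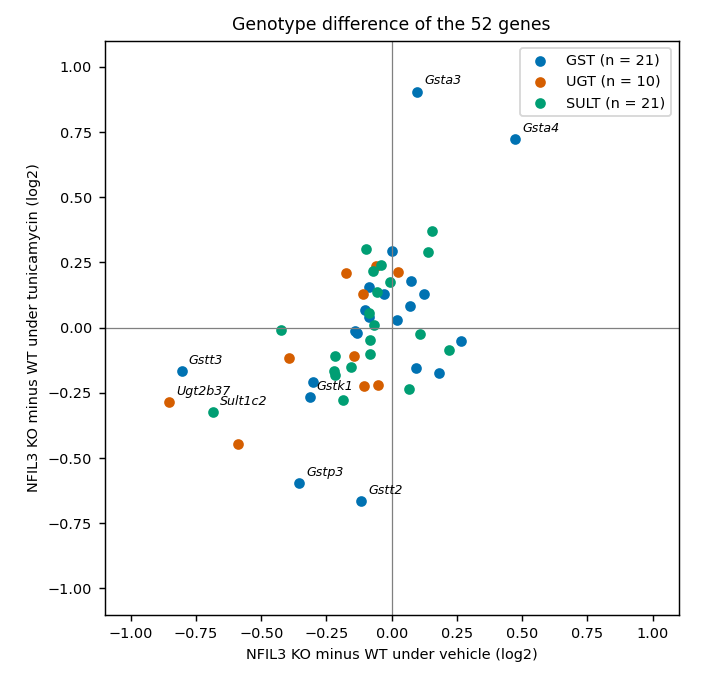
Difference between NFIL3 KO and WT livers (log2) under vehicle (horizontal axis) and under tunicamycin (vertical axis) for the 52 genes, coloured by family, 5 mice per group. Gsta3 lies at 0.10 under vehicle and 0.91 under tunicamycin, and Gsta4 at 0.47 and 0.72.

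Genes listed for the supply, use or breakdown of the cosubstrates moved in both directions. Over all genes, 13.7% were called lower in each genotype, and 13.7% in WT and 13.5% in NFIL3 KO livers were called higher. Of 11 genes of glutathione supply and breakdown, 3 rose and 5 fell in each genotype. Chac1, which degrades glutathione, rose by 2.19 in WT and 2.11 in NFIL3 KO livers, and Slc7a11, the cystine importer, by 1.27 and 1.26. Gclc, the catalytic subunit of the first step of glutathione synthesis, fell by 1.01 and by 0.80. Of 10 genes of PAPS supply and sulfate removal, 2 rose in both genotypes, while 4 fell in WT and 5 in NFIL3 KO livers. The risers were Papss1, a PAPS synthase, with 2.08 and 1.88, and the sulfate transporter Slc26a2, with 2.32 and 1.84. The log2 signals of Papss1 in WT livers were 6.64, 6.60, 6.92, 6.84 and 6.97 under vehicle and 8.79, 8.70, 9.06, 9.03 and 8.80 under tunicamycin. The groups were far apart, in the direction opposite to that of the 5 SULT genes that fell. Papss2, the other PAPS synthase listed, was brighter and was called in neither genotype. In WT livers Papss2 lay at 10.31 to 10.81 under vehicle and at 9.98 to 10.39 under tunicamycin. Of 6 genes listed for UDP-glucuronate supply and use, 1 rose in each genotype, while 2 fell in WT and 3 in NFIL3 KO livers. The riser was Slc35b1 (1.51 in WT livers), whose part in UDP-glucuronate supply was not tested here. In WT livers the fallers were Gusb (-0.86) and Ugcg (-0.59). Slc35d1 and Ugp2 of the same list were called in neither genotype. Ugdh, which makes UDP-glucuronate, was called lower in NFIL3 KO livers (-0.65) and not in WT livers, and its interaction was not called.

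Other conjugating enzymes followed the falls, with 6 of 11 lower in WT and 8 of 11 lower in NFIL3 KO livers and none higher. For these and the next lists, the share of all genes called lower was 13.7% in each genotype. The share called higher was 13.7% in WT livers. The methyltransferases Inmt, Hnmt and Tpmt fell by 1.97, 1.61 and 1.05 in WT livers. Of 10 exporters of conjugates, 4 fell and 2 rose in WT livers, where Abcc6 fell by 0.98 and Abcc4 rose by 1.08. Of 19 regulators known to act on these enzymes, 15 fell in WT and 14 in NFIL3 KO livers. Nr1i3, the nuclear receptor CAR, had the largest difference among them, from 9.38 to 10.03 under vehicle to 5.79 to 6.67 under tunicamycin in WT livers (-3.42), and Cebpa fell by 1.83. The PAR bZIP activators Dbp, Hlf and Tef, which bind the D-box, fell by 1.39, 1.30 and 0.67 in WT and by 1.78, 1.17 and 0.53 in NFIL3 KO livers. Nr1i2, the nuclear receptor PXR, fell by 0.92 and by 0.60. Between genotypes under tunicamycin, the only called genes of these lists were Arsa, a lysosomal sulfatase (-0.75), and Nfil3 (-2.75). Of the 7 members on the study's list of LIVER-ID genes, which it drew from H3K4me3 in liver and not from these arrays, 6 fell in each genotype and Ugt2b34 did not.

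Some genes of these families could not be read singly, since 9 probesets carry several symbols that include them, and no gene is named from those. A probeset shared by 8 Ugt1a symbols was lower under tunicamycin by 0.53 ± 0.10 in WT and by 0.66 ± 0.10 in NFIL3 KO livers (adjusted p over probesets = 0.000281 and 2.39e-05). A second probeset, shared by 5 of those symbols, stood at -0.03 ± 0.29 and -0.34 ± 0.29 without a call. Lower under tunicamycin in WT and NFIL3 KO livers were also the probesets shared by Gstp1 and Gstp2 (-0.29 and -0.39, adjusted p over probesets = 0.0418 and 0.00646), by Gstz1 and Pomt2 (-0.40 and -0.30) and by Gstm5 and 4933431E20Rik (-0.30 and -0.33), while the other 4 were not called in either genotype. Among those 4, the probeset of Gsta1, Gm3776 and Gsta2 stood at -0.30 in WT and -0.16 in NFIL3 KO livers. That of Gm3776, Gm10639, Gsta1 and Gsta2 stood at -0.74 and -0.37 (adjusted p over probesets = 0.0654 and 0.442). Under tunicamycin the former was 0.43 higher without NFIL3 and the latter 0.95 ± 0.28 higher (adjusted p over probesets = 0.634 and 0.372). The probeset of Gsta2, Gsta1 and Gm10639 differed by 0.08.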

How the data were processed

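Liver RNA of 20 mice was measured on Affymetrix MoGene-2_0-st arrays. The authors had summarized probes into the deposited log2 values with RMA (Partek, per the submitters' processing notes), quantile normalization included, and these values were used as they are. Values lay between 0.515 and 13.7, and array medians between 4.65 and 4.77. Of 41345 probesets, 23521 carry 1 symbol and were averaged into 22180 genes, 1820 carry several and 16004 none. RefSeq (GRCm38.p6) gave gene order and promoter windows, and 1 of the motifs searched is not reported here. No batch is recorded in the labels, and the number of arrays limits precision.

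Groups came from the labels. All 20 arrays entered 1 fit of group means in limma (version 3.58.1, R 4.3.3, lmFit and eBayes), from which 5 contrasts were tested on both sides: the tunicamycin response in each genotype, the genotype difference under each treatment, and the interaction. Benjamini-Hochberg adjustment ran over all genes, and genes under 0.05 were called. The script was tested on simulated data. Members and gene lists were chosen with earlier results of these data known. The rule for naming took Gsta3 and the other LIVER-ID members, in each tunicamycin contrast the 5 called members of a family with the largest difference and any called against its family, in each genotype contrast and the interaction up to 4 called members of a family or the 2 with the smallest p, and up to 3 called genes of each pathway list, while further members and genes were named after their values were seen. Other settings covered the normalization, dim genes, probesets in place of genes, variance moderation, array weights, the replicate number as a block, a fold minimum of 1.5 and the omission of each array. Protein sequences were not used here.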

Additional observations from a re-analysis of the deposited data

Results flagged for a closer look

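In groups of 5 arrays, an array was singled out when its gap to the nearest of the others exceeded 0.71 of the group's range (Dixon's criterion), which chance alone gives in about 1 of 20 groups. Of 120 groups tested for 30 members, 6 held such an array. Gsto1 read 9.27 in WT tunicamycin replicate 3, against 9.50 to 9.58 in the other 4 arrays. Gstt1 read 9.85 in WT vehicle replicate 3, against 10.19 to 10.32. Gstt3 read 6.002 in WT tunicamycin replicate 2, against 5.26 to 5.46. The dim gene Sult2a1 read 1.73 in NFIL3 KO tunicamycin replicate 2, against 2.08 to 2.19. Ugt2b35 read 10.19 in NFIL3 KO vehicle replicate 4, against 9.74 to 9.84. Ugt2b5 read 10.57 in NFIL3 KO vehicle replicate 3, against 10.83 to 10.94. Each of the 6 values came from a different array.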

How the results depend on the processing

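Leaving out each array in turn gave 24 to 28 members called upon tunicamycin in WT livers, 20 to 25 in NFIL3 KO livers, 1 to 2 between genotypes under tunicamycin, and 0 under vehicle and in the interaction. The count of 2 under tunicamycin came without WT tunicamycin replicate 3, where Gstp3 was added, and without NFIL3 KO tunicamycin replicate 3, where Gstt2 was added. With dim genes left out, the median difference of the GST genes moved to -0.54 in WT and -0.43 in NFIL3 KO livers, and that of the SULT genes to -1.13 and -0.78, since fewer genes entered. With a fold minimum of 1.5, 7 GST genes were called lower in NFIL3 KO livers. Smaller differences lost their calls by that rule, among them Gsta3 (-0.55) and Mgst1 (-0.57) in NFIL3 KO livers and Gsto1 in both genotypes. Of 2402 alternative values for 78 results of single genes, 2351 kept direction and side of the threshold, 37 lost the call, 3 gained it and 11 changed sign. Besides those named above, calls were lost for Gstm7 without NFIL3 KO vehicle replicate 1, 2 or 4 or tunicamycin replicate 1, 2 or 3 (adjusted p up to 0.0855), for Gstt3 without NFIL3 KO vehicle replicate 3 or 5 or tunicamycin replicate 5 (up to 0.0971), for Gstt4 without NFIL3 KO vehicle replicate 4 or tunicamycin replicate 1 (up to 0.0567), and for Ugt2b37 without WT vehicle replicate 4 or 5 or tunicamycin replicate 2 or 5 (up to 0.078). Calls were gained by Gstm6 in NFIL3 KO livers without tunicamycin replicate 3 (0.47, adjusted p = 0.0309), and in WT livers by Gstp1 without WT tunicamycin replicate 3 or NFIL3 KO tunicamycin replicate 5 (down to 0.0167), Sult1a1 without tunicamycin replicate 5 (0.0227) and Sult2b1 without vehicle replicate 4 or tunicamycin replicate 1 (down to 0.0446). With dim genes left out and with a variance trend, Gstp1 was called lower in both genotypes (adjusted p of 0.0398 to 0.0465), Ugt3a2 lower in NFIL3 KO livers and Ugt2b34 higher in NFIL3 KO livers, and without moderation of variances Ugt3a2 and Ugt2b34 were called as well, while array weights gave a call to Sult1a1 in WT livers (0.0412). Without moderation of variances, Gstp3, Gstt3 and Ugt2b38 in NFIL3 KO livers and Ugt2b37, Gstm3 and Gstt2 in WT livers lost their calls. With probesets in place of genes, Gstm7 in NFIL3 KO livers and Gstm3 and Gstt2 in WT livers lost theirs. A variance trend ended the calls of Gstm3 and Gstt2 in WT and of Ugt2b38 in NFIL3 KO livers. Array weights, and a fit of only the groups compared, each ended those of Gstm3 in WT and Ugt2b38 in NFIL3 KO livers.

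The changes of sign all concerned values near 0 that were not called. With array weights, Ugt2b5 stood at -0.012 between genotypes under vehicle and Ugt2b34 at -0.0041 in the interaction. When each array was left out in turn, the difference between genotypes under vehicle ran from -0.0012 to 0.17 for Gsta3, from -0.066 to 0.0045 for Mgst1, from -0.12 to 0.021 for Ugt2b36 and from -0.094 to 0.11 for Ugt2b5, and the interaction ran from -0.0029 to 0.075 for Ugt2b34 and from -0.28 to 0.031 for Ugt2b35.

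With the replicate number as a block, 26 members were called in WT and 24 in NFIL3 KO livers, 0 and 1 between genotypes under vehicle and tunicamycin, and 0 in the interaction, and Gstt2 in WT and Gstt3 in NFIL3 KO livers lost their calls. Arrays of the same number did not deviate together, with correlations of -0.14 to 0.10 over 30 pairs, and 3 of 20 arrays correlated best with their own number. The samples share only a number. The cause of these changes was not tested.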
